A study of Homo sapiens with 39 samples.

Results

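Expression of 8 genes of peroxisome proliferator-activated receptor alpha (PPAR-alpha) signaling and fatty acid oxidation was examined in HepaRG™ cells: *PPARA*, *FABP1*, *CYP4A11*, *CPT1A*, *ACADM*, *PDK4*, *ANGPTL4* and *PLIN2*. They were chosen with earlier results of these data known and were picked by gene symbol. All 8 were found among the 20802 gene targets of the whole transcriptome AmpliSeq panel, with 1 target per gene. HepaRG™ is an established line from a human hepatoma whose differentiated cultures contain hepatocytes beside cells of bile duct type. The study asked whether a transcriptomic biomarker and a micronucleus test could sort DNA damage-inducing (DDI) from non-DDI chemicals in these cells. Cells recovered for several days after seeding, received 3 daily exposures and were collected 7 hr after the last of them, and RNA from 3 cultures was pooled into 1 library, so each condition had 1 library and no replicate.

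The DDI chemicals were aflatoxin B1 (AFB1, 0.25, 1 and 2.5 µM), 2-nitrofluorene (2NF, 10, 50 and 250 µM), cisplatin (CISP, 2, 5 and 10 µM), etoposide (ETP, 0.5, 2.5 and 10 µM) and methyl methanesulfonate (MMS, 50, 100 and 200 µM). The non-DDI chemicals were colchicine (COL, 0.05, 0.1 and 0.3 µM), 2-deoxy-D-glucose (2DG, 1.25, 5 and 10 mM), ampicillin trihydrate (AMP, 1, 3 and 10 mM), sodium ascorbate (ASC, 1, 2 and 10 mM) and sodium chloride (NaCl, 1, 2.5 and 10 mM). The 3 concentrations are called low, mid and high, and the high one was set by cell survival or, where no toxicity was seen, at 10 mM. The 30 treated libraries were set against 9 vehicle controls: 4 DMSO controls (for CISP, for 2NF, for ETP, and 1 shared by AFB1 and COL), 4 media controls (for 2DG, AMP, ASC and NaCl) and 1 water control (for MMS). No DDI chemical was given in media, so class and vehicle are nearly the same split and cannot be told apart in full.

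PPAR-alpha is a nuclear receptor that is activated by fatty acids and by fibrate drugs, pairs with a retinoid X receptor and binds DNA upstream of genes that handle fatty acids. In liver it is known for switching on fatty acid transport, oxidation and ketone body production during fasting. Among the genes examined, *PPARA* encodes the receptor itself, while the others encode proteins that bind, oxidize or store fatty acids or regulate their supply and use, and are known as its targets in liver. These are general roles, and none of them was measured in this experiment.

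The libraries held between 8504699 and 16425527 counts (median 11202013). Values are given as RPM, reads scaled to a common library total, and are compared between libraries for 1 gene at a time, since primer efficiency differs between targets. In the controls, 10 hepatocyte markers (among them *ALB*, *APOA1* and *HNF4A*) summed to between 26000 and 50590 RPM, and 7 cholangiocyte markers to between 468.1 and 1464 RPM. The cholangiocyte markers *KRT7* and *EPCAM* had 0 counts in all 4 DMSO controls, and the leukocyte marker *PTPRC* in all 9 controls. In pooled cell lysates, fewer cells of a type and less RNA per cell cannot be told apart. Nothing in the labels says whether controls came from separate days, so p-values measure only the spread between these libraries.

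The controls were compared first, because they are the only replicated conditions. *ANGPTL4* was lower and *PPARA* was higher in DMSO than in media, and these were the 2 of the 8 genes that passed the test (edgeR quasi-likelihood, Benjamini-Hochberg adjusted p under 0.05 over 13053 genes). Over all genes, 5.35% passed, 1.66% higher and 3.68% lower in DMSO.

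*ANGPTL4* encodes a secreted protein that inhibits lipoprotein lipase. It measured 5.61, 3.88, 5.30 and 3.93 RPM in the DMSO controls of CISP, 2NF, AFB1 and COL, and ETP, and 10.8, 9.21, 9.38 and 10.2 RPM in the media controls of NaCl, 2DG, ASC and AMP. All DMSO values lay below all media values, and the fitted difference was -1.05 ± 0.18 on the log2 scale (SE, adjusted p = 0.0103). The water control of MMS, at 6.82 RPM, fell between the groups.

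*PPARA* measured 89.8, 72.7, 72.8 and 75.4 RPM in the same DMSO controls and 53.3, 52.7, 58.4 and 61.2 RPM in the media controls. These groups did not overlap either, and the DMSO controls were higher by 0.48 ± 0.10 log2 (adjusted p = 0.0246). The call was lost without the DMSO control of CISP (adjusted p = 0.0915), without that of ETP (0.0707) and without the media control of 2DG (0.0773). Over all genes, all 4 DMSO controls lay above all 4 media controls for 4.77% and below them for 8.82%.

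Values of the other 6 genes overlapped between vehicles. *CYP4A11*, a fatty acid omega-hydroxylase, averaged 6.22 ± 4.02 RPM in DMSO and 13.3 ± 4.01 RPM in media (SD, n = 4 each), with an adjusted p of 0.153. The DMSO control shared by AFB1 and COL stood at 12.2 RPM while the other DMSO controls were between 3.38 and 5.03 RPM, and without it the difference was -1.64 log2 (adjusted p = 0.0121). *PDK4* averaged 368 ± 73.9 RPM in DMSO and 261 ± 35.4 RPM in media (adjusted p = 0.0924). It passed with DESeq2 on all controls (adjusted p = 0.0384) and without the DMSO control of 2NF (adjusted p = 0.0482). For *CPT1A*, *ACADM*, *FABP1* and *PLIN2*, differences between -0.31 and 0.21 log2 had adjusted p from 0.291 to 0.8.

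Markers of other states differed between the vehicles too. Hepatocyte markers passed the test as higher in DMSO for 4 of 10 genes, *CYP3A4* and *TTR* among them, and lower for none, while 4 of 5 proliferation genes were lower in DMSO. Among 82 further genes of PPAR-alpha signaling and fatty acid handling that were tested, 7 were higher and 1 was lower. *ACSL1*, which activates fatty acids, was higher in DMSO by 0.57 ± 0.12 log2 (adjusted p = 0.0238), and *PNPLA2*, the lipase of lipid droplets, by 0.66 ± 0.15 (adjusted p = 0.0274). The receptor *PPARG* was lower in DMSO, with a difference of -0.55 ± 0.14 (adjusted p = 0.042). The part of cell state in the vehicle differences was not tested.

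Trends with concentration were then fitted for each chemical over all 39 libraries, with each control set as a block. The slope is the log2 change per step from control to low, mid and high, and 20 residual degrees of freedom come from departures from these lines. In AFB1, 2NF, MMS and COL, 3, 4, 4 and 5 of the 8 genes passed the test, against 5.57%, 8.75%, 15.5% and 12.3% of the 13812 genes tested. By direction, 0, 2, 0 and 1 members rose, against 2.36%, 4.3%, 5.1% and 5.13% of all genes, and 3, 2, 4 and 4 fell, against 3.21%, 4.45%, 10.4% and 7.21%. As the members were chosen with earlier results of these data known, these counts are a description. In AFB1 and COL none of the 8 passed once the high libraries were left out. In NaCl, 1 of 8 passed, against 0.0434% of all genes. No member passed in CISP, ETP, 2DG, AMP or ASC, where between 0 and 0.0796% of all genes did. In those 5 chemicals 1, 1, 1, 0 and 0 members had an unadjusted p under 0.05, and DESeq2 called 0 in each.

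**Figure D1:**
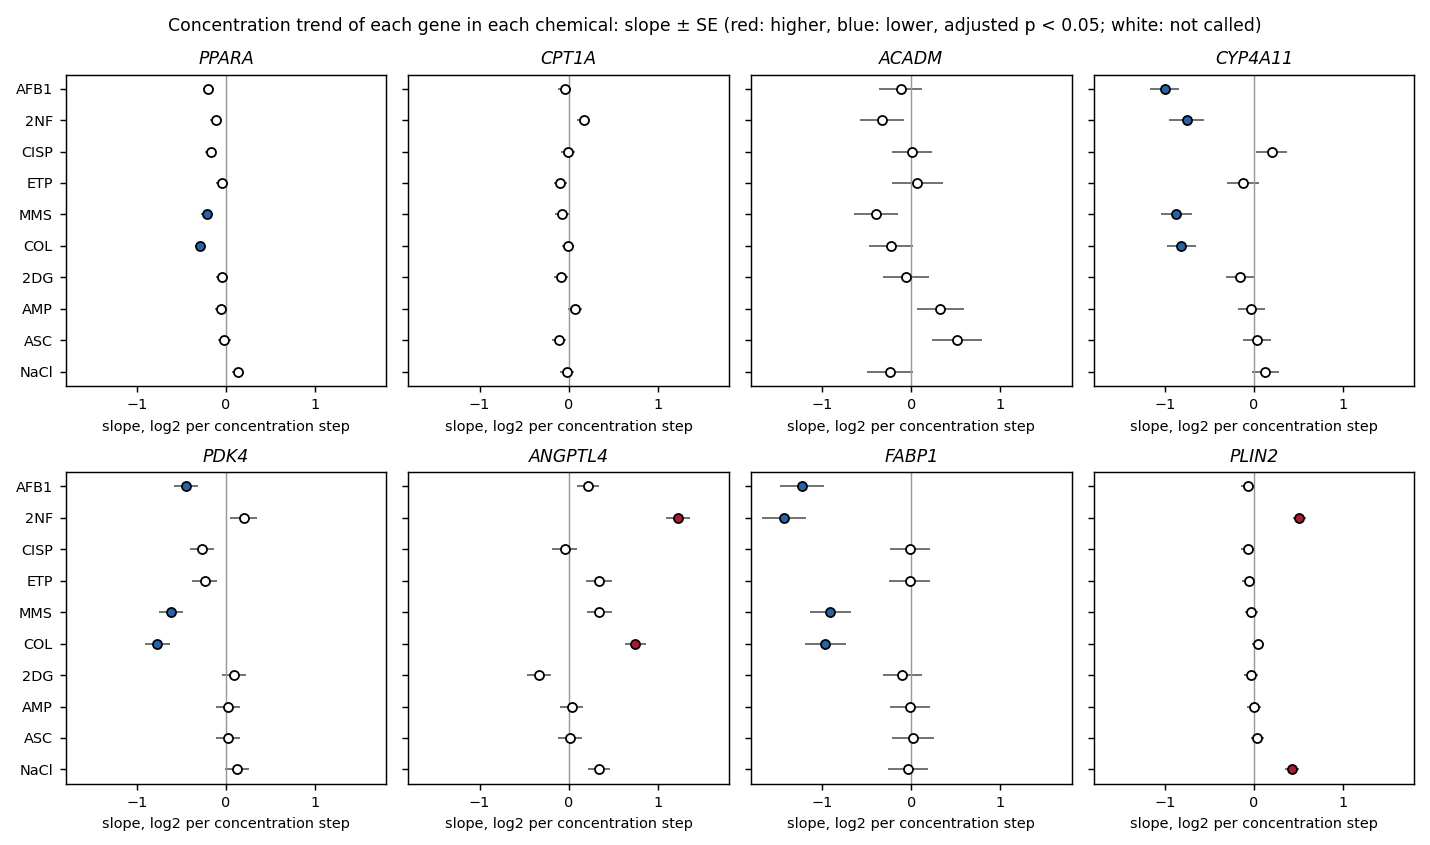
Slope of each gene in each chemical in log2 units per concentration step, with bars of ± 1 SE. Filled points have an adjusted p under 0.05 over all genes, blue for lower and red for higher. *FABP1* and *CYP4A11* are blue in AFB1, 2NF, MMS and COL, *ANGPTL4* is red in 2NF and COL, *PLIN2* is red in 2NF and NaCl, and *CPT1A* and *ACADM* are white throughout.

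Across 39 libraries *PPARA* ranged from 35.5 RPM at 100 µM MMS to 89.8 RPM in the DMSO control of CISP, a ratio of 2.53, and none of the 30 treated libraries differed from its matched control by more than 2-fold. The lowest log2 ratio was -0.83, at 0.3 µM COL, while the DMSO controls differed by at most 0.30. *PPARA* fell with concentration in COL and in MMS. In COL the control measured 72.8 RPM and the low, mid and high libraries 54.3, 52.2 and 40.5 RPM, in falling order. The COL slope was -0.29 ± 0.06 log2 per step (adjusted p = 0.00272). In MMS, 57.4 RPM in the water control stood above 40.8, 35.5 and 40.4 RPM in the treated libraries, with no order among the treated. That slope was -0.21 ± 0.07 (adjusted p = 0.0275), and it lost its call without the low or the mid libraries (adjusted p = 0.0622 and 0.0625), with scaling by library totals alone (0.0629), with concentration as a share of the highest (0.103) and without 7 libraries described below for *ACADM* (0.0962).

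In AFB1, *PPARA* measured 60.8, 58.7 and 48.2 RPM after a control of 72.8 RPM, the same library that served COL. The slope of -0.20 ± 0.06 did not pass (adjusted p = 0.0651). It passed with vehicle in place of the matched control as the block, at -0.22 ± 0.05 (adjusted p = 0.00287), with DESeq2 (adjusted p = 0.0446) and without the mid libraries (adjusted p = 0.0389). In 2NF the slope of -0.12 ± 0.07 did not pass (adjusted p = 0.388), but passed with vehicle as the block, at -0.16 ± 0.05 (adjusted p = 0.0268). All 3 libraries of AFB1, of 2NF, of ETP and of COL lay below all 4 DMSO controls for *PPARA*, as did 7.35%, 5.65%, 3.27% and 9.22% of all genes tested. All 3 libraries of 2DG lay below all 4 media controls, as for 2.23% of genes.

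*FABP1* and *CYP4A11* were the members with the steepest falls, each in AFB1, 2NF, MMS and COL. *FABP1* encodes the fatty acid-binding protein of the hepatocyte cytosol, an abundant carrier of long-chain fatty acids. In AFB1 it measured 167 RPM in the control and 122, 60.8 and 10.9 RPM at 0.25, 1 and 2.5 µM, falling at each step. Its slope was -1.22 ± 0.25 log2 per step (adjusted p = 0.0027), and the high library differed from its control by -3.81 on the log2(RPM + 1) scale. The largest difference between 2 DMSO controls was 1.08 for this gene.

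In 2NF, *FABP1* measured 249 RPM in the control, 181 RPM at 10 µM, 12.6 RPM at 50 µM and 21.2 RPM at 250 µM. The drop lay between the low and the mid concentration, and the high library was not lower than the mid one. The slope was -1.43 ± 0.24 (adjusted p = 0.00028). This control was the highest of the 4 DMSO controls, which ranged from 117 to 249 RPM, and both the mid and high libraries were below all 4.

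MMS had the same shape for *FABP1*, with 95.3 RPM in the water control and 71.6, 8.71 and 22.2 RPM in the treated libraries. The value at 100 µM was the lowest of all 39 libraries, 99 counts, in 1 of the 7 libraries described below for *ACADM*. The MMS slope was -0.91 ± 0.23 (adjusted p = 0.00811), a call that was lost with concentration as a share of the highest (adjusted p = 0.0526). Without those 7 libraries the slope was -0.76 ± 0.23 (adjusted p = 0.0343). Water had 1 control only, so the spread between water controls is unknown, and the largest difference between controls of another vehicle was 1.23 log2. In COL the treated libraries measured 98.2, 79.3 and 27.4 RPM, all below the 4 DMSO controls, with a slope of -0.96 ± 0.23 (adjusted p = 0.00521). Over all genes, 9.22% lay below the DMSO controls in all COL libraries.

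In the remaining chemicals no *FABP1* slope passed. Treated libraries of CISP and ETP lay between 104 and 174 RPM, and those of AMP, ASC and NaCl between 133 and 233 RPM. The 2DG libraries, at 73.2, 78.1 and 72.5 RPM, were below all 4 media controls, the lowest of which was the 2DG control at 92.5 RPM, as were 2.23% of all genes. Slopes in CISP, ETP, 2DG, AMP, ASC and NaCl were between -0.10 and 0.02 log2, with SE from 0.22 to 0.24.

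The DNA in front of *FABP1*, *PDK4*, *ANGPTL4* and *PLIN2* is shown as an example of 2 members that fell and 2 that rose, picked with their values known. Each line gives the 250 bases before the start of the gene, 5′ to 3′ on the strand of the gene, from RefSeq promoters on GRCh38.p14. *FABP1* lies at chr2:88128063-88128312 on the minus strand, *PDK4* at chr7:95596517-95596766 on the minus strand, *ANGPTL4* at chr19:8363905-8364154 on the plus strand and *PLIN2* at chr9:19127493-19127742 on the minus strand. Capitals mark a match to GGNCANAGGTCA on the opposite strand, a relaxed form of the repeat of AGGTCA spaced by 1 base to which PPAR-alpha and its partner are known to bind.
FABP1: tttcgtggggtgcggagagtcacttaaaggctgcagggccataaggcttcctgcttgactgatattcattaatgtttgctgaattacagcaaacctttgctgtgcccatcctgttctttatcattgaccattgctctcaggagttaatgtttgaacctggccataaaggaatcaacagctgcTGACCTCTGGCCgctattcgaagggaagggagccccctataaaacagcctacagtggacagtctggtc
PDK4: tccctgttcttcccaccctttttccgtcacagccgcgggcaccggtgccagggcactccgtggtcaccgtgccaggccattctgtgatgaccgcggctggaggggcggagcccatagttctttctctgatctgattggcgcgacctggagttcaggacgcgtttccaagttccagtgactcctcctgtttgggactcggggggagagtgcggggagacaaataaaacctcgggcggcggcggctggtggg
ANGPTL4: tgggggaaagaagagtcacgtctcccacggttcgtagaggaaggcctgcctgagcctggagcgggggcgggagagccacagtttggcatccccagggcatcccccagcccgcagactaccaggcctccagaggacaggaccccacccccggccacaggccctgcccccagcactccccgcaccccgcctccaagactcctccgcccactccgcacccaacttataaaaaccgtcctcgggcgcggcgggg
PLIN2: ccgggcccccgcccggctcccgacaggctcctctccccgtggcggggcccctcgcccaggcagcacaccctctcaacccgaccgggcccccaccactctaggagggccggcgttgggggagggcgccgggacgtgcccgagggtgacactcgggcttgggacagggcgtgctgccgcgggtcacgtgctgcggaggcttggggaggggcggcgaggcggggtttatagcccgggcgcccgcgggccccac

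The capitals in *FABP1* span bases -68 to -57 counted from the gene start. Both strands were searched in the same 250 bases of 35116 promoters. The full repeat AGGTCANAGGTCA was found in 6 promoters (0.0171%) and in none of the 7 members that had a promoter entry, GGNCANAGGTCA in 51 (0.145%) and in 1 member, and the single AGGTCA, which lies inside both, in 4242 (12.1%) and in 1 member, each time *FABP1*. The relaxed form was written after the *FABP1* promoter had been read, so its match there is a description. These windows say nothing of sites farther away, within the genes or of what was bound.

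*CYP4A11* encodes a microsomal cytochrome P450 that hydroxylates medium- and long-chain fatty acids at their omega end. In AFB1 it measured 12.2 RPM in the control and 5.44, 3.76 and 1.03 RPM in the treated libraries. The lowest value rests on 11 counts and was the lowest of all 39 libraries. Its slope was -1.004 ± 0.167 log2 per step (adjusted p = 0.000503). COL shared that control and measured 5.28, 3.67 and 2.49 RPM, with a slope of -0.81 ± 0.16 (adjusted p = 0.000962).

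The shared control weighed on both slopes, as it was the highest of the DMSO controls for this gene. The low and mid libraries of AFB1 and COL lay within or just above the range of the other 3 DMSO controls, 3.38 to 5.03 RPM. With vehicle as the block, the AFB1 slope was -0.60 ± 0.19 (adjusted p = 0.0279) and the COL slope -0.43 ± 0.18, which no longer passed (adjusted p = 0.0875).

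2NF and MMS had their own controls. *CYP4A11* in 2NF measured 5.03 RPM in the control and 4.49, 1.16 and 1.44 RPM in the treated libraries, and in MMS 10.6 RPM in water and 7.45, 1.67 and 2.60 RPM. In both, as for *FABP1*, the mid and high libraries were low and the low library was near its control. Slopes were -0.76 ± 0.20 (adjusted p = 0.0141) and -0.87 ± 0.17 (adjusted p = 0.0011). The call in 2NF was lost without the low libraries (adjusted p = 0.0632), without the high libraries (0.0741) and with concentration as a share of the highest (0.198). The 100 µM MMS library is 1 of the 7 described below for *ACADM*. Without those 7 the MMS slope was -0.71 ± 0.16 (adjusted p = 0.00529). In the media-based chemicals *CYP4A11* stood higher, between 5.74 and 27.7 RPM, as it did in the media controls. All 3 NaCl libraries (20.8, 23.5 and 18.8 RPM) lay above all 4 media controls, like 2.81% of genes, without a called slope.

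*CYP4A22* is a close relative, and the longest coding transcripts of both genes share 97.4% of 2529 aligned bases, and the annotation of the *CYP4A11* target lists both, so reads could be split between them and the values of either are uncertain. *CYP4A22* had between 0 and 39 counts. It also fell in AFB1, by -1.06 ± 0.27 log2 per step (adjusted p = 0.0165), and in COL, by -1.32 ± 0.29 (adjusted p = 0.00294), which share a control. Its slopes in 2NF (-0.713 ± 0.384, adjusted p = 0.335) and MMS (-0.744 ± 0.295, adjusted p = 0.0895) did not pass.

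*PDK4* encodes a kinase that switches off pyruvate dehydrogenase and so spares glucose when fatty acids are burned. It fell in COL, MMS and AFB1, and it did not fall in 2NF. In COL it measured 459 RPM in the control and 252, 189 and 92.4 RPM in the treated libraries. These were below all 4 DMSO controls, the lowest of which was 279 RPM, as were 9.22% of all genes. The COL slope was -0.77 ± 0.14 log2 per step (adjusted p = 0.000327). In MMS, 241 RPM in water compared with 140, 55.6 and 82.2 RPM, a slope of -0.61 ± 0.13 (adjusted p = 0.00238).

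The AFB1 libraries measured 318, 319 and 166 RPM for *PDK4* against the same control of 459 RPM, which was the highest DMSO control. Only the high library lay below the range of the DMSO controls. This slope, -0.45 ± 0.14 with an adjusted p of 0.0466, was close to the threshold and was lost in 5 alternatives, among them library totals alone (adjusted p = 0.0581), vehicle as the block (0.0511) and leaving out the low libraries (0.148).

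In 2NF, *PDK4* measured 279 RPM in the control and 329, 548 and 376 RPM in the treated libraries. The mid value was the highest of all 39 libraries, and the slope of 0.20 ± 0.15 did not pass (adjusted p = 0.553). The difference between the slopes of 2NF and COL was 0.97 log2 per step, which passed a test over all genes and 16 pairs of chemicals. Of the other kinases of the family, *PDK2* fell in AFB1 (-0.25 ± 0.06, adjusted p = 0.0101), in MMS (-0.29 ± 0.06, adjusted p = 0.00249) and in COL (-0.39 ± 0.06, adjusted p = 8.65e-05). *PDK1* and *PDK3* passed in none of the chemicals.

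*ANGPTL4* and *PLIN2* were the members that rose. *ANGPTL4* measured 3.88 RPM in the 2NF control and 4.78, 13.7 and 44.3 RPM at 10, 50 and 250 µM. The top value, 462 counts, was the highest of all libraries and differed from the control by 3.22 on the log2(RPM + 1) scale, while the 4 DMSO controls differed by at most 0.44. The slope was 1.23 ± 0.13 log2 per step (adjusted p = 1.4e-06). This control was the lowest of the DMSO controls for *ANGPTL4*. With vehicle as the block the slope was 0.94 ± 0.09 (adjusted p = 3.28e-09).

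In COL, *ANGPTL4* measured 5.30 RPM in the control and 8.62, 11.4 and 25.7 RPM in the treated libraries, rising at each step. All of them were above all 4 DMSO controls, and so were 12.4% of all genes. The slope was 0.75 ± 0.12 (adjusted p = 8.22e-05). In MMS the order was 6.82 RPM in water, then 10.9, 17.4 and 14.0 RPM, with a slope of 0.35 ± 0.14 that did not pass (adjusted p = 0.0906). All 3 libraries of ETP (5.95, 7.02 and 8.23 RPM) and of CISP also stood above all DMSO controls, as did 3.87% and 4.85% of genes, without a called slope. In NaCl the treated libraries measured 14.8, 11.4 and 23.2 RPM, above all 4 media controls like 2.81% of genes, again without a called slope (0.34 ± 0.12, adjusted p = 0.852). In 2DG the values were 8.08, 6.38 and 4.61 RPM, all below the 4 media controls like 2.23% of genes. That slope was -0.33 ± 0.14 (adjusted p = 1).

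*PLIN2* encodes the perilipin that coats lipid droplets in hepatocytes. It rose in 2NF, from 135 RPM in the control to 170, 283 and 390 RPM, in order of concentration. The slope was 0.51 ± 0.08 log2 per step (adjusted p = 7.49e-05). All other treated libraries of the DMSO chemicals, AFB1, CISP, ETP and COL, lay between 112 and 229 RPM.

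NaCl was the only media-based chemical with a called member. *PLIN2* measured 156 RPM in its control and 226, 216 and 393 RPM at 1, 2.5 and 10 mM, and the last was the highest of all 39 libraries. The slope was 0.43 ± 0.08 (adjusted p = 0.0209). Its control was the lowest of the media controls, the others being between 197 and 219 RPM, so the low and mid libraries stood close to those. The call was lost with vehicle as the block (0.27 ± 0.06, adjusted p = 0.0725), with concentration as a share of the highest (adjusted p = 0.0772), without the low libraries (0.133) and without the high libraries (1). *PLIN4* fell in MMS (-0.37 ± 0.12, adjusted p = 0.0271) and COL (-0.42 ± 0.12, adjusted p = 0.015). *PLIN3* and *PLIN5* passed nowhere.

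*CPT1A* encodes the carnitine palmitoyltransferase that admits long-chain fatty acids to the mitochondrion and controls the rate of their oxidation. It passed the test in none of the comparisons. Its values ranged from 57.9 RPM at 200 µM MMS to 143 RPM at 250 µM 2NF, a ratio of 2.46. None of the 30 treated libraries was more than 2-fold from its control. In 2NF it measured 90.8 RPM in the control and 111, 107 and 143 RPM in the treated libraries, all above the highest DMSO control of 102 RPM, as were 10.3% of all genes. That slope was 0.17 ± 0.08 (adjusted p = 0.206). Slopes in the other 9 chemicals were between -0.11 and 0.07 log2 per step.

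*ACADM* encodes medium-chain acyl-CoA dehydrogenase, which catalyzes the opening step of mitochondrial beta-oxidation. It also passed in no comparison, but its spread was wide, from 10.1 to 78.7 RPM. The spread followed the barcode numbers of the libraries. In the 7 libraries with barcodes 33 to 39 it measured between 10.1 and 32.7 RPM with a median of 20.2 RPM, and in the other 32 libraries between 22.1 and 78.7 RPM with a median of 48.5 RPM. The difference of the medians was -1.23 log2, and 71 of the 13812 genes tested (0.514%) were as low. This grouping was made after the values had been seen, so that share is a description. For the other 7 members this difference was between -0.31 and 0.13.

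Those 7 libraries were the controls of ETP, AMP and ASC, 2 µM CISP, 100 µM MMS, and 2DG at 1.25 and 10 mM. For *ACADM* the controls of AMP and ASC measured 22.4 and 20.2 RPM, and those of 2DG and NaCl 58.5 and 63.3 RPM. Of the 10 *ACADM* values more than 2-fold from their matched control, 5 were higher and 5 lower. The higher ones were all in AMP and ASC, whose controls were among the 7. Set against the mean of the media controls with lower barcodes, the difference of the 10 mM ASC library changed from 1.50 to -0.045. The labels give a barcode number but name no batch for these libraries. The title of the 2 µM CISP library also carries the letter a, which is not explained. The part of library handling in these values was not tested. Without the 7 libraries the number of members called was unchanged in every comparison except MMS, where *PPARA* was lost. In the class comparisons and in CISP, ETP, 2DG, AMP and ASC that number was 0 already and could not fall. Leaving the 7 out also removed the matched controls of ETP, AMP and ASC. It took ETP, 2DG, AMP and ASC out of the class comparisons.

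**Figure D2:**
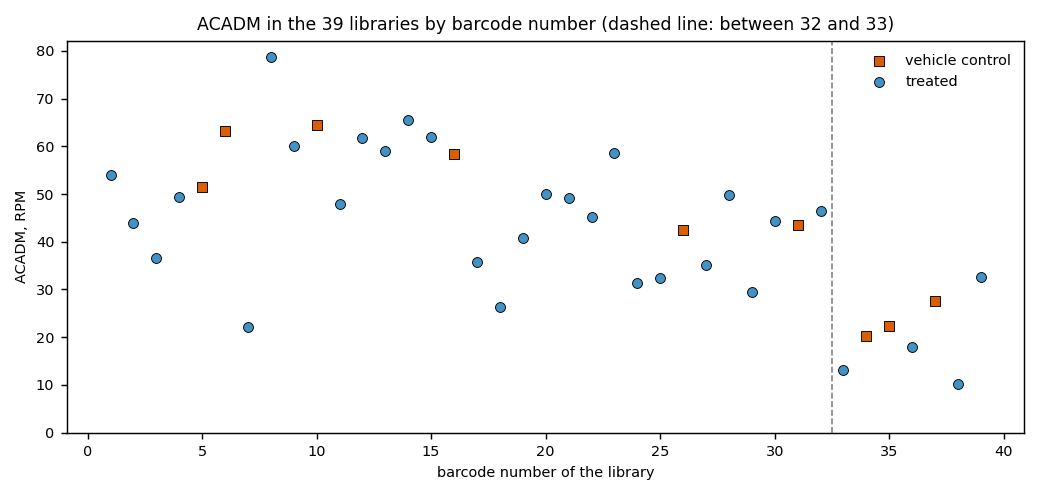
RPM of *ACADM* in the 39 libraries by barcode number, with the y axis starting at 0. Squares are vehicle controls and circles are treated libraries. The 7 points right of the dashed line lie between 10.1 and 32.7 RPM, and most points left of it lie higher.

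Over all 240 gene-by-library values, 42 were more than 2-fold from the matched control, 13 higher and 29 lower, against 3.16% of all gene-by-library values. By gene these were 10 for *CYP4A11* and 8 for *FABP1*, all lower, 6 for *PDK4*, all lower, 5 for *ANGPTL4* and 3 for *PLIN2*, all higher, 10 for *ACADM* in both directions, and 0 for *PPARA* and *CPT1A*. Libraries with at least 2 such members are given with the shares of all genes that were lower and higher. At 100 µM MMS 4 members were lower and 1 was higher (7.04% and 3.24%), and at 200 µM 3 were lower (5.36% and 3.08%). At 50 µM 2NF 3 were lower and 2 higher (3.95% and 2.61%), and at 250 µM 2 were lower and 2 higher (3.16% and 4.39%). At 0.3 µM COL 3 were lower and 1 was higher (4.41% and 3.87%), and at 0.1 µM 3 were lower (1.33% and 1.59%). At 2.5 µM AFB1 3 were lower (2.95% and 3.2%), at 1 µM 2 were lower (0.579% and 0.63%), and at 5 µM CISP 2 were lower, *ACADM* and *PDK4* (4.05% and 0.876%). At 10 mM NaCl 2 were higher (0.775% and 0.413%).

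**Figure D3:**
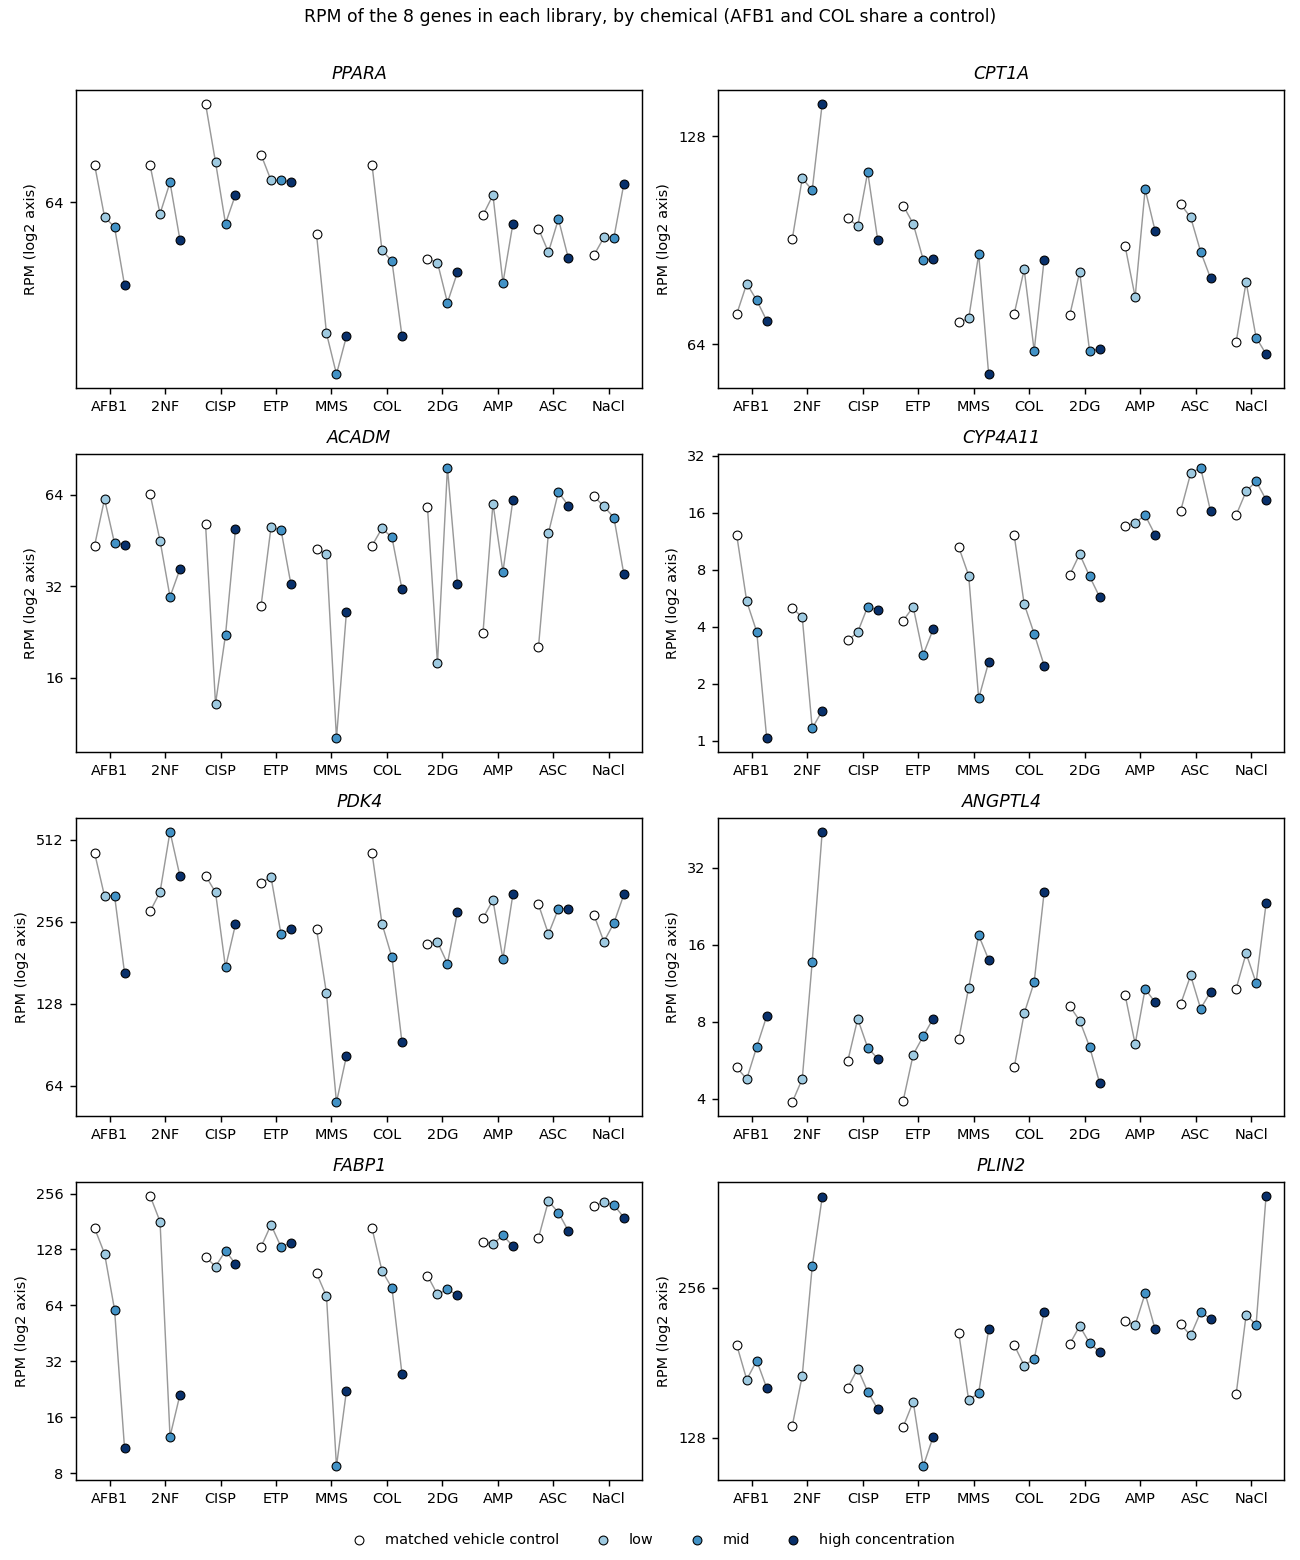
RPM of the 8 genes in all libraries, on a log2 axis, by chemical. Open points are matched vehicle controls, and light, medium and dark blue points are the low, mid and high concentrations, 1 library each. The falls of *FABP1* and *CYP4A11* in AFB1, 2NF, MMS and COL, the rise of *ANGPTL4* to 44.3 RPM in 2NF and the *PLIN2* values of 390 and 393 RPM in 2NF and NaCl stand out.

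As classes, DDI and non-DDI chemicals were compared at the high concentration, with chemicals as replicates (5 each). None of the 8 genes passed for DDI chemicals against their controls, where 1.96% of 13602 genes did (1.49% higher and 0.478% lower), although 3 had an unadjusted p under 0.05 and DESeq2 called 2. *FABP1* came nearest, with log2 ratios of -3.81 in AFB1, -3.50 in 2NF, -2.05 in MMS, -0.13 in CISP and 0.08 in ETP. Values in AFB1, 2NF and MMS were far below 0 and those in CISP and ETP near it, and the fitted mean was -1.86 ± 0.58 (adjusted p = 0.113). It passed with DESeq2 (adjusted p = 0.0253) and without COL (adjusted p = 0.0481), and *CYP4A11* passed with DESeq2 (adjusted p = 0.0265).

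*PPARA* was lower in 5 of 5 DDI chemicals at the high concentration, by -0.41 ± 0.17 (mean log2 ratio ± SD). It was also lower in 4 of 5 non-DDI chemicals, by -0.15 ± 0.43. The fitted *PPARA* difference for DDI chemicals, -0.40 ± 0.14, did not pass (adjusted p = 0.17) except without COL (adjusted p = 0.0253). *ANGPTL4* was higher in 5 of 5 DDI chemicals, at 1.13 ± 1.22, and did not pass (adjusted p = 0.405). In non-DDI chemicals it was higher in 3 of 5, at 0.46 ± 1.13. How many of all genes moved the same way in 5 of 5 chemicals was not counted. For non-DDI chemicals no gene of 13602 passed, and 563 had an unadjusted p under 0.05, while DESeq2 also called 0. Between the classes 0.0515% of genes and no member passed, with no member at an unadjusted p under 0.05 and none called by DESeq2. COL, the non-DDI chemical given in DMSO, had log2 ratios of -2.56 for *FABP1*, -2.30 for *PDK4*, -1.92 for *CYP4A11* and 2.08 for *ANGPTL4*.

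Slopes were also compared between chemicals that shared a vehicle, in 16 pairs chosen after the values had been seen, with p adjusted over all genes and pairs. Of the 128 member differences 15 passed, against shares of all genes from 0 to 2.95% per pair. 2NF differed from CISP and from ETP in *ANGPTL4* (1.27 and 0.89), *FABP1* (-1.41 and -1.41) and *PLIN2* (0.58 and 0.57). 2NF differed from AFB1 in *ANGPTL4* and *PLIN2* but the difference in *FABP1*, AFB1 minus 2NF, was 0.20 ± 0.34 and did not pass (adjusted p = 0.957). For CISP against ETP, both DDI chemicals in DMSO, no member passed (0% of all genes), and the differences ran from -0.39 ± 0.20 for *ANGPTL4* to 0.32 ± 0.25 for *CYP4A11*.

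The remaining genes of the pathway were read from lists by role. Of 83 further genes tested, 19 fell in AFB1, 22 in 2NF, 32 in MMS and 38 in COL, where 3.21%, 4.45%, 10.4% and 7.21% of all genes fell, while 0, 0, 1 and 1 rose. AFB1 and COL share a control. Median slopes of these genes were -0.12, -0.18, -0.20 and -0.24 log2 per step, and medians over all genes lay between -0.01 and 0.00. In the other 6 chemicals 0 of 83 passed in either direction. The counts by role below include the members that belong to each list.

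Of 7 omega-hydroxylation genes, which are *CYP4* genes and *ALDH3A2*, a fatty aldehyde dehydrogenase, 5 fell in AFB1, 3 in 2NF, 4 in MMS and 6 in COL, with *CYP4A11* among them each time. *CYP4F2*, which hydroxylates fatty acids and vitamin E, fell in 2NF by -1.05 ± 0.12 (adjusted p = 4.05e-06). *CYP4F12* fell in MMS by -0.93 ± 0.14 (adjusted p = 4.95e-05). Of 4 ketogenesis genes, 2, 2, 3 and 4 fell in these chemicals. *BDH1*, which interconverts the ketone bodies, had slopes from -1.14 to -0.94.

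Peroxisomal genes fell for 2, 4, 6 and 8 of 13 genes in AFB1, 2NF, MMS and COL. *EHHADH*, the bifunctional enzyme of peroxisomal beta-oxidation, fell in AFB1 (-0.44 ± 0.07, adjusted p = 0.000555), 2NF (-0.53 ± 0.08, adjusted p = 4.82e-05) and COL (-0.51 ± 0.07, adjusted p = 2.69e-05). *SCP2*, which carries sterols and holds a thiolase, had slopes between -0.66 and -0.42 and fell in all 4. Of 19 mitochondrial beta-oxidation genes 2, 3, 5 and 7 fell, with *CPT1A* and *ACADM* in this list and in none of these counts. *ECHS1*, an enoyl-CoA hydratase, fell in COL by -0.33 ± 0.05 (adjusted p = 2.36e-05). *ACADL* fell in COL by -0.65 ± 0.11 (adjusted p = 0.000263).

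Among receptors and cofactors, 0 of 14 genes passed in AFB1 and 2NF. In MMS and in COL 3 fell and 1 rose, with the member *PPARA* among those that fell. *PPARGC1A*, a coactivator of PPAR-alpha, fell in MMS (-0.89 ± 0.13, adjusted p = 4.56e-05) and COL (-0.73 ± 0.13, adjusted p = 0.00038). *RXRA*, the partner receptor, fell in both as well (-0.26 ± 0.08 and -0.27 ± 0.07, adjusted p = 0.0283 and 0.0149). *MED1* rose in MMS (0.30 ± 0.06, adjusted p = 0.00183) and *PPARD* rose in COL (0.21 ± 0.06, adjusted p = 0.0112).

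Uptake, binding and activation genes fell for 4, 5, 5 and 5 of 10, with *FABP1* among them each time. *SLC27A5*, a bile acid and fatty acid CoA ligase, had the steepest slope, -1.68 ± 0.21 in 2NF (adjusted p = 9.92e-06). Lipid droplet genes fell for 2, 4, 5 and 4 of 13, and *PLIN2* in 2NF was the only riser among them in the 4 chemicals. *PLIN1* fell in 2NF (-0.53 ± 0.15, adjusted p = 0.0212), so perilipins moved in both directions there. Among secreted targets 3 of 6 fell in each chemical. *APOA5* and *APOA1* fell in 2NF (-0.73 ± 0.20 and -0.62 ± 0.12, adjusted p = 0.0166 and 0.000788) in the libraries in which *ANGPTL4* rose.

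Markers of hepatocytes and of dividing cells also moved with concentration in AFB1, 2NF, MMS and COL. Hepatocyte markers fell for 5, 6, 6 and 7 of 10 in these chemicals, with median slopes of -0.48, -0.58, -0.65 and -0.55. Their summed level was 44219 RPM in the control of AFB1 and COL and 26750 and 21240 RPM at the high concentrations of each. It was 38664 RPM in the 2NF control and 14330 RPM at 250 µM. In MMS it was 27969 RPM in the water control, 4481 RPM at 100 µM and 8276 RPM at 200 µM. The mid concentration of MMS thus had the lowest sum, and it also had the lowest *FABP1*, *PDK4*, *PPARA* and *ACADM*. That library is 1 of the 7 described above for *ACADM*. Proliferation genes rose for 2, 5, 4 and 5 of 5. None of the 10 hepatocyte markers was at 0 in any group. In CISP the hepatocyte sum was 50594 RPM in the control and 27156 RPM at 5 µM. In the same libraries *FABP1* measured 117 and 126 RPM and *CYP4A11* 3.38 and 5.1 RPM, neither of them lower, while *PDK4* measured 378 and 174 RPM. The part of the hepatocyte state in the falls of *FABP1*, *CYP4A11* and *PDK4* was not tested.

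Finally, the genes whose levels followed *PPARA* most closely over the 39 libraries were sought among 11562 genes, each with no library under 10 counts. They were *ASS1*, *ARRB2*, *GADD45G*, *ALDH2* and *SNTB1*, with Pearson's r of log2(RPM + 1) from 0.86 to 0.92. Within the set, *PDK4* was the closest to *PPARA* (r = 0.82), followed by *FABP1* (0.51), *CPT1A* (0.34), *ACADM* (0.18), *CYP4A11* (0.07), *PLIN2* (-0.15) and *ANGPTL4* (-0.45). These are descriptions, since the points share vehicles, controls and chemicals, and no p was computed.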

How the data were processed

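RNA from 39 pools of HepaRG™ cells was profiled by AmpliSeq. The authors aligned reads with the Torrent Suite (v5.04, TMAP) to hg19 and the panel's transcripts and deposited raw counts per target. The same counts relative to library totals were deposited as RPM. Recomputed RPM differed by at most 0.000538. The 10 spike-in targets (largest count 0) were left out, and genome coordinates of targets were not used here. Classes (DDI, non-DDI) follow the study's methods.

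Counts were tested with edgeR 4.0.16 in R 4.3.3 (TMM, filterByExpr, quasi-likelihood), adjusted by Benjamini-Hochberg over all genes tested. The fits compared DMSO against media controls (6 residual degrees of freedom), classes at the high concentration, and concentration rank per chemical, the latter fits with control sets as blocks. Log2 ratios used log2(RPM + 1), which understates changes of low genes, and have 1 library a side and no p. Totals limit the precision of low genes, and reads carry no molecular identifiers. On simulated counts (13637 genes) the AFB1 trend test called 75% of genes changed 1.5-fold per step and 91% of those changed 2-fold, with 9 false calls. Of genes changed by these folds, 26% and 67.3% were called between the controls (12937 genes). These shares were 24.2% and 70.4% for DDI chemicals against controls (13468 genes) and 3% and 33% between the classes (13466 genes). Simulated trends had equal steps, and simulated controls had no shift between sets. The falls of *FABP1* in 2NF and MMS were not of equal steps, so the shares hold for the simulated setting only.

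Members and lists were chosen with earlier results of these data known. Named genes are the 8 members, per list up to 4 called genes with the largest change, close relatives (*PDK1* to *PDK3*, *PLIN3* to *PLIN5*, *CYP4A22*) and the 5 genes most like *PPARA*. *ANGPTL8* was read under an older symbol, and *PDP1* and *CD24* were not matched. Some genes of the lists are counted there but not reported by name here. Alternatives were other normalizations, filters and blocks, DESeq2 1.42.0, left-out libraries or chemicals, concentration as a share of the highest, other control means and a pseudocount of 0.1. Leaving out barcodes 33 to 39 and the 16 pairs were added after the values were seen. Python 3.11.15, pandas 2.3.3, matplotlib 3.10.9 and Biopython were used for summaries, figures and alignments.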

Additional observations from a re-analysis of the deposited data

Results flagged for a closer look

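Log2 ratios at the high concentration were searched for a chemical far from the other 4 of its class, by the gap to its neighbor over the class range (limit 0.71 for 5 chemicals). Of 32 groups examined, the 4 DMSO and 4 media controls of each gene included, 7 passed, and chance alone flags about 1 in 20 of independent groups. These groups share libraries, and all that passed came from 250 µM 2NF, 0.3 µM COL and 10 mM NaCl. The number that passed can therefore not be set against that share. Among DDI chemicals, 2NF stood apart as the highest for *CPT1A* (0.751), *ANGPTL4* (0.715) and *PLIN2* (0.829). Among non-DDI chemicals, COL stood apart as the lowest for *CYP4A11* (0.728), *PDK4* (0.837) and *FABP1* (0.825), and NaCl as the highest for *PLIN2* (0.804). No control was flagged. COL is also the only non-DDI chemical given in DMSO.

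Slopes differed between chemicals of the same vehicle for 15 member differences, each tested over all genes and 16 pairs and given as log2 per step. *ANGPTL4* differed by -1.01 between AFB1 and 2NF, by -0.53 between AFB1 and COL, by 1.27 between 2NF and CISP, by 0.89 between 2NF and ETP and by -0.79 between CISP and COL. *PLIN2* differed by -0.58 between AFB1 and 2NF, by 0.58 between 2NF and CISP, by 0.57 between 2NF and ETP, by 0.46 between 2NF and COL and by -0.46 between 2DG and NaCl. *FABP1* differed by -1.41 between 2NF and CISP and by -1.41 between 2NF and ETP. *CYP4A11* differed by -1.20 between AFB1 and CISP and by 1.01 between CISP and COL, and *PDK4* by 0.97 between 2NF and COL. AFB1 and COL share the highest DMSO control for *CYP4A11*, and with vehicle as the block its slopes were -0.60 in AFB1, -0.19 in CISP and -0.43 in COL, whose differences were not tested. Each value is the slope of the chemical named first minus the other.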

How the results depend on the processing

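Of 1424 single values from other settings of the tests, 1291 kept their direction and their side of the threshold, 29 lost a call, 11 gained one and 93 uncalled values changed sign. Counts of members called moved by more than 1.5 times in these cases. DESeq2 called 2 for DDI chemicals against controls in place of 0. With concentration as a share of the highest, MMS had 2 in place of 4 and NaCl 0 in place of 1. With vehicle as the block in place of the replicate block (treated libraries with their matched control), NaCl had 0. Without any replicate block, members called in the class comparisons stayed at 0. No paired analysis was possible for DMSO against media because these controls share no culture or number. Leaving out 1 control gave 1 to 3 members for DMSO against media, and leaving out 1 chemical gave 0 to 2 for DDI and 0 for the other class comparisons. Leaving out the low, mid or high libraries gave 0 to 4 in AFB1, 3 to 4 in 2NF and MMS, 0 to 5 in COL, 0 to 1 in NaCl and 0 elsewhere. The counts of 0 in AFB1, COL and NaCl came without the high libraries, where fewer libraries were fitted, and NaCl also had 0 without the low ones.

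Counts over all genes moved as well. DESeq2 called 1144 in place of 698 for DMSO against media, and 771 in place of 267 for DDI, which was 89 without the block, 167 with vehicle as the block, 431 without the filter on low counts and 0 without barcodes 33 to 39. For DDI against non-DDI, 7 genes became 96 with DESeq2, 34 without the filter or without the block, and 0 with the strict filter, with vehicle as the block or without those barcodes. Vehicle as the block gave 1670 in place of 769 in AFB1, 2230 in place of 1208 in 2NF and 2808 in place of 1704 in COL. A share of the highest concentration gave 445 in 2NF and 1324 in place of 2140 in MMS. Leaving out 1 control, chemical or concentration gave 227 to 907 for DMSO against media, 10 to 994 for DDI, 0 to 17 between classes, 0 to 936 in AFB1, 479 to 1080 in 2NF, 1287 to 1614 in MMS and 93 to 1646 in COL. In the other 6 chemicals, with at most 11 genes called, counts under other settings ranged from 0 to 171.

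Values more than 2-fold from the matched control numbered 42, and between 30 and 45 under the alternatives. In 1 case the sign turned, *ACADM* at 10 mM ASC, at -0.045 against the media controls with barcodes below 33. Low counts limit *CYP4A11*, with 11 to 304 counts, and *ANGPTL4*, with 37 to 462.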

Other observations

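Lipogenesis is the opposite branch of fatty acid metabolism. Of 13 lipogenic genes tested, 5 fell in AFB1, 8 in 2NF, 7 in MMS and 8 in COL, and none rose, where 3.21%, 4.45%, 10.4% and 7.21% of all genes fell. *MLXIPL*, the carbohydrate response factor, had slopes of -0.46 ± 0.08 in AFB1, -0.50 ± 0.08 in 2NF, -0.41 ± 0.08 in MMS and -0.60 ± 0.08 in COL (edgeR adjusted p = 0.000503, 0.000181, 0.000587 and 9.42e-06). *THRSP*, a hepatic lipogenic factor, fell in AFB1 by -2.18 ± 0.47 (adjusted p = 0.0044), in 2NF by -1.77 ± 0.46 (adjusted p = 0.0118) and in COL by -1.53 ± 0.41 (adjusted p = 0.0132). *SCD*, the desaturase of stearate, fell in AFB1 and 2NF by -0.37 ± 0.10 and -0.47 ± 0.10 (adjusted p = 0.0208 and 0.00165), and *FASN*, the fatty acid synthase, fell in MMS by -0.33 ± 0.09 (adjusted p = 0.0159). In DMSO against media controls, *ELOVL6*, which elongates fatty acids, was the 1 lipogenic gene of 13 that passed, lower by -0.67 ± 0.14 (adjusted p = 0.0217).

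Cholangiocyte markers had 4 of 7 measured genes in the test. Of these, 0 passed in AFB1, 2 fell and 1 rose in 2NF, 3 fell in MMS and 1 fell in COL. *SPP1*, a secreted matrix protein, rose in 2NF by 0.39 ± 0.10 (adjusted p = 0.00827) and fell in MMS and COL by -0.61 ± 0.09 and -0.60 ± 0.09 (adjusted p = 5.78e-05 and 4.74e-05). *KRT7* had 0 counts in the DMSO and media controls. Fibroblast or stellate markers had 4 genes in the test, of which 1 fell in 2NF, 3 fell in MMS and 1 rose in COL. Leukocyte markers had 2, of which *CD14* fell in MMS and COL (-0.38 ± 0.12 and -0.34 ± 0.11, adjusted p = 0.0227 and 0.0367).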
